A study of Mus musculus with 12 samples.

Results

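Genes of the complement and coagulation systems were compared between livers of Apoe knockout mice given an adeno-associated virus (AAV) carrying Rspo2 and livers of Apoe knockout mice given a control AAV carrying Gfp. The 40 genes were taken by symbol from the 54532 genes of the expression table, 19 of them complement genes and 21 genes of coagulation and fibrinolysis, and all 40 were found. AAV is a gene delivery vector, and Rspo2 codes for R-spondin 2, which cells secrete and which makes them more responsive to Wnt ligands. Apoe knockout mice lack apolipoprotein E, which clears lipoprotein remnants, and both groups carry that deletion. The 2 groups, Rspo2-AAV and Gfp-AAV (called control below), had 6 bulk RNA libraries each. Rspo2-AAV libraries carry the numbers 1, 2, 4, 5, 6 and 7 and control libraries the numbers 1 to 6. Strain, age, sex, diet, vector dose, the interval after injection and the promoter of the vectors are not given in the sources used here. The title of the series places its question in hepatic fat storage.

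Hepatocytes make most of the complement and clotting proteins of the blood plasma. Complement is started by recognition proteins and their proteases, which lead to convertases that cleave C3 and C5, and the terminal proteins then assemble into a pore in the target membrane. Coagulation is a chain of proteases that ends in thrombin, which turns fibrinogen into fibrin, and plasmin later dissolves the clot.

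FPKM values are scaled for the length of the gene, so levels of different genes are compared per length. They are also scaled between libraries, by a library size that is not the recovered total: 25.2 M reads in Rspo2-AAV 1, with 22195576 recovered, and 15.4 M reads in Rspo2-AAV 2, with 17796257. Recovered reads ran from 14295644 to 22195576 per library. Rspo2 was at 49.9 to 573 FPKM in Rspo2-AAV libraries and was listed at 0 in all control libraries. The 5 hepatocyte markers (Alb, Ttr, Apoa1, Apoh and Cps1) were all expressed and summed to 18716 to 41336 FPKM in Rspo2-AAV and 22747 to 46722 FPKM in control. Some libraries stood apart. Xist, made only where an X chromosome is inactivated, was at 28.0 FPKM in Rspo2-AAV 1, 5.57 in Rspo2-AAV 2 and 42.0 in control 3, and at no more than 0.0186 FPKM elsewhere. In the same order, 5 neutrophil markers summed to 43.4, 47.8 and 47.6 FPKM in these libraries, and to 4.60 to 15.8 FPKM in the others. The Y-linked Ddx3y was at 0.0305 FPKM in Rspo2-AAV 1, 7.04 in Rspo2-AAV 2 and 0.548 in control 3, and at 7.25 to 15.6 FPKM elsewhere. Rspo2-AAV 2 thus held both Xist and Ddx3y. Its share of reads from mitochondrially encoded genes was 10.5%, against 3.53% to 5.89% in the other libraries. Reads of 10 pancreatic acinar genes made up 5.94% of Rspo2-AAV 4, 0.533% of Rspo2-AAV 5 and 0.0615% of Rspo2-AAV 6.

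Among complement genes, 7 of 19 fell in Rspo2-AAV livers and none rose. They were the protease C1ra, the lectin-pathway protease Masp2, the terminal genes Hc, C8a, C8b and C9, and the regulator Cfi. Among coagulation genes, 4 of 21 fell and none rose, namely F9, F11, Serpind1 and Cpb2. A gene was called where its adjusted p was under 0.05 in limma, a linear model fitted on log2(FPKM + 0.5) to all 13447 genes that averaged 0.5 FPKM or more over the 12 libraries, and all 40 genes passed that filter. Over all tested genes 5.2% were called, 2.65% lower and 2.55% higher, against 36.8% lower among complement genes and 19.05% lower among coagulation genes. In bulk livers, fewer cells of a type and less RNA per cell cannot be told apart.

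The log2 change was negative for 37 of the 40 genes, against 49.6% of all tested genes. The median change was -0.38 for complement and -0.22 for coagulation, against 0.00 over all tested genes. In 9 of the 40 genes, 5 complement and 4 coagulation, the Rspo2-AAV values lay wholly below the control values, as they did in 1.62% of all tested genes. No gene was wholly above, which 1.62% of all tested genes were. At an unadjusted p under 0.05 there were 10 of 19 complement and 7 of 21 coagulation genes, all with lower means in Rspo2-AAV, against 21.5% of all tested genes in either direction. These counts depended on the libraries used. Without control 2 the complement count was 4, with 1.36% of all tested genes called lower. Without Rspo2-AAV 4, 5 or 6 the coagulation count was 2, with 1.81%, 1.29% and 1.26% of all tested genes called lower. Without both Rspo2-AAV 4 and 5, only C9 and Hc of the 40 genes were called (0.892% of all tested genes were then called lower and 0.87% higher). With FPKM rescaled to a common total (TPM), 4 complement and 2 coagulation genes were called lower, against 1.36% of all tested genes.

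**Figure D1:**
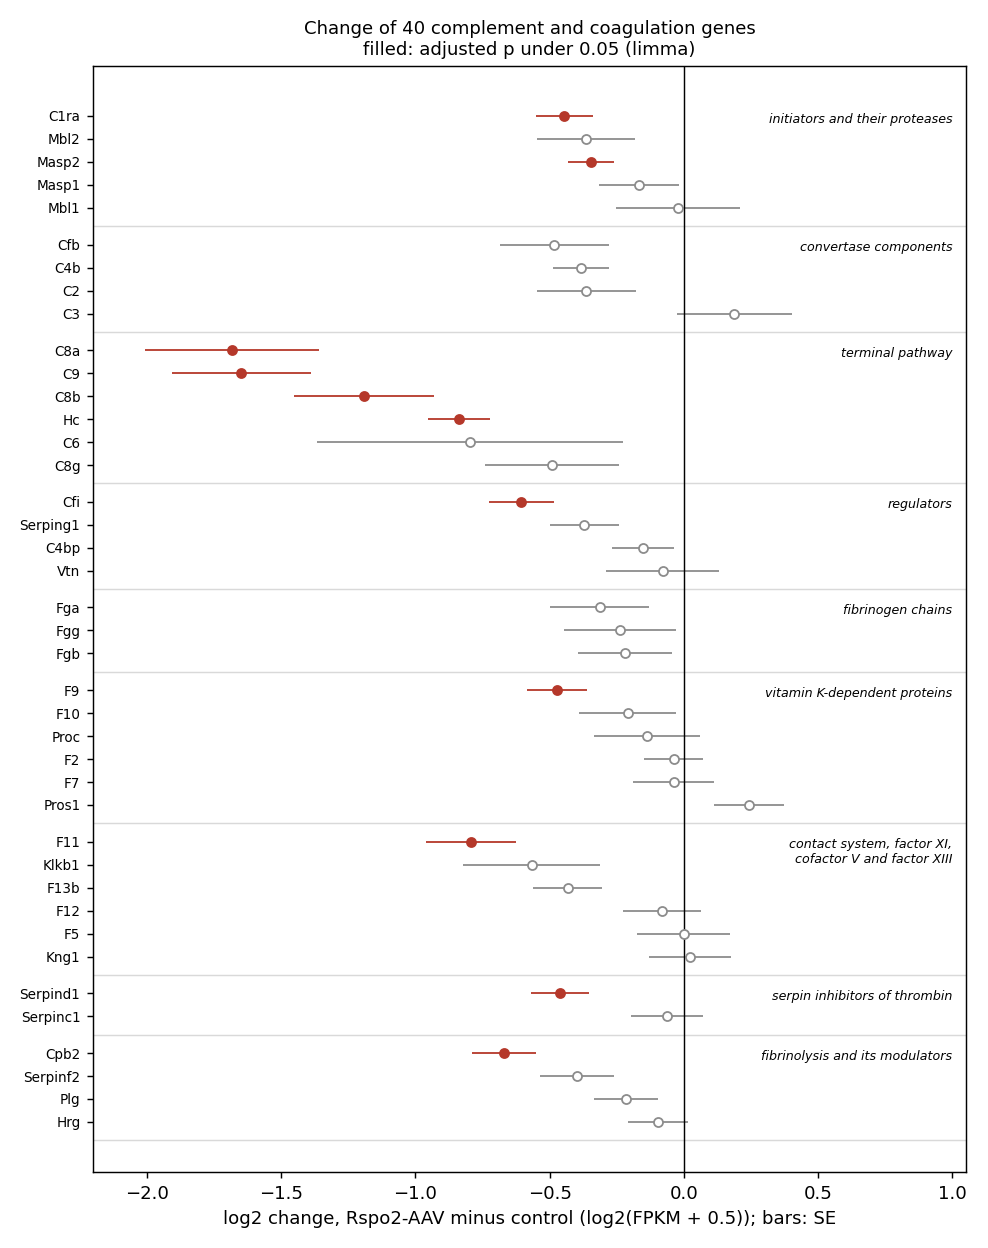
Difference in log2(FPKM + 0.5), Rspo2-AAV minus control, for each of the 40 genes in order of role. Points are the fitted change, bars its standard error, and filled points the 11 genes called lower, of which C8a (-1.68) and C9 (-1.65) lie farthest to the left.

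The 4 largest falls among the 40 genes were in the terminal pathway. Its products are C5 (from Hc), C6, the 3 chains of C8 (from C8a, C8b and C8g) and C9, which build the membrane attack complex, and 4 of these 6 genes fell. The median log2 change of the 6 was -1.01. The windows around the start sites of the 4 called genes are shown because these genes moved together. Each holds 250 bases before and 50 bases after the start of the RefSeq gene on the GRCm38.p6 build, 5′ to 3′ on the gene's strand: Hc at chr2:35061363-35061662 (minus strand), C8a at chr4:104876349-104876648 (minus), C8b at chr4:104766067-104766366 (plus) and C9 at chr15:6445096-6445395 (plus). Capitals mark matches of the motifs described after them.
Hc: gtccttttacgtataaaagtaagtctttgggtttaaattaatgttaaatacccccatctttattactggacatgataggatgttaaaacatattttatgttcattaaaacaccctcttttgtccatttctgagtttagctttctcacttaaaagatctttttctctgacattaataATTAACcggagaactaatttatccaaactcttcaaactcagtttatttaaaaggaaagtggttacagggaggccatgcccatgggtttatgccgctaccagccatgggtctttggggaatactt
C8a: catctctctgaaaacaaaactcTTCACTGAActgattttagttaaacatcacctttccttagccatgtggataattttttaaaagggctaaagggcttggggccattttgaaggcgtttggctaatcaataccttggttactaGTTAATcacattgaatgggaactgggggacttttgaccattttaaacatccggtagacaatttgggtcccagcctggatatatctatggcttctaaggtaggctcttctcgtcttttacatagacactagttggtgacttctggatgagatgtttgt
C8b: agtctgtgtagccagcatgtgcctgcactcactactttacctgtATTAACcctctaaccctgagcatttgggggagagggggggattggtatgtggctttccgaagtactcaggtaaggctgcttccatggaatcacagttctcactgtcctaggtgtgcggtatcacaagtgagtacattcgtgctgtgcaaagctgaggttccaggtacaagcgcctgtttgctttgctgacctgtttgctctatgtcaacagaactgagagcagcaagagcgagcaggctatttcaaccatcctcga
C9: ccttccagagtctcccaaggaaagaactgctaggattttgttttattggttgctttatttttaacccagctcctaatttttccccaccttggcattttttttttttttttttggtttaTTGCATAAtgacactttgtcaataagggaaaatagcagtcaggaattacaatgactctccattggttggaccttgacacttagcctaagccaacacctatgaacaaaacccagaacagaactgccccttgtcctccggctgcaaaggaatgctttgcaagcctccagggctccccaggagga

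4 motifs were searched on both strands of RefSeq windows of this length, which 31 of the 40 genes had, 10 of the called genes among them. Shares over all are per window, while a gene among the 31 was counted where any window of it matched. CTTTGAT is the core bound by T-cell factors, the DNA-binding partners of beta-catenin. It was in 3.73% of all 32851 windows and in 2 of the 31, Masp2 and Serpind1, both called. GTTAAT, part of the site bound by the hepatocyte factor HNF1, was in 7.10% of all windows and in 10 of the 31, 4 of them called. It is in capitals in the windows of Hc, C8a and C8b, as ATTAAC where it lies on the other strand. TTCNNNGAA, a STAT motif, was in 8.30% of all windows and in 8 of the 31, 4 of them called. It is in capitals in the window of C8a. TTGCNNAA, a C/EBP motif, was in 10.8% of all windows and in 11 of the 31, 5 of them called. It is in capitals in the window of C9. None of the marked matches overlaps another, and a match describes letters only, not binding.

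C9, whose product forms the wall of the pore, was at 46.1 to 119 FPKM (median 71.4) in Rspo2-AAV libraries and at 133 to 362 FPKM (median 235) in control libraries. Every Rspo2-AAV library was below every control library. The means were 75.8 ± 23.9 FPKM in Rspo2-AAV and 242 ± 85.6 FPKM in control (SD, n = 6 each), a ratio of 0.312, and the log2 change was -1.65 ± 0.26 (SE; limma adjusted p = 0.00455).

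C8a, which codes for the alpha chain of C8, was at 31.6 to 123 FPKM (median 52.1) in Rspo2-AAV and at 82.3 to 255 FPKM (median 207) in control. The groups overlapped through Rspo2-AAV 2, the highest of its group, and control 3, the lowest of its own. The log2 change was -1.68 ± 0.32 (adjusted p = 0.0109) and the ratio of means 0.32. C8b, the gene of the beta chain, was at 27.3 to 80.0 FPKM (median 50.8) in Rspo2-AAV and at 75.7 to 168 FPKM (median 114) in control, and overlapped through Rspo2-AAV 2 and control 6. Its log2 change was -1.19 ± 0.26 (adjusted p = 0.0215), and without control 2 its adjusted p was 0.0578. C8a and C8b lie next to each other on chromosome 4 (GRCm38, C8b at 104766317 to 104804548 on the plus strand and C8a at 104815679 to 104876398 on the minus strand), with 11130 bases between them.

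C8g, the gene of the gamma chain, lies on chromosome 2 (25498651 to 25501719, minus strand) and was not called. It was at 90.8 to 282 FPKM (median 133) in Rspo2-AAV and at 148 to 314 FPKM (median 183) in control (log2 change -0.49 ± 0.25, adjusted p = 0.279). The C8 protein needs all 3 chains, so their proportions were compared. The ratio of C8a to C8g FPKM was 0.325 to 0.472 in Rspo2-AAV libraries and 0.557 to 1.46 in control libraries, with no overlap. The ratio of C8b to C8g was 0.284 to 0.456 in Rspo2-AAV and 0.433 to 0.871 in control, and overlapped. The difference between the chains was not tested.

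Hc codes for C5, whose cleavage starts the terminal pathway. It was at 85.5 to 120.2 FPKM (median 98.5) in Rspo2-AAV and at 155 to 208 FPKM (median 173) in control. The groups were well apart, and control 3 and Rspo2-AAV 1 lay within the range of their own groups. The log2 change was -0.84 ± 0.12 (adjusted p = 0.00247), and Hc had the smallest p of the 40 genes. Hc, C8a and C9 were called without each of the 12 libraries in turn.

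C6, named here after its values were seen, binds cleaved C5 and was not called. It was at 9.01 to 97.8 FPKM (median 84.7) in Rspo2-AAV and at 33.9 to 179 FPKM (median 122) in control (log2 change -0.80 ± 0.57, adjusted p = 0.457). Without Rspo2-AAV 1 the change was -0.26, and without control 3 it was -1.11. Its lowest value in each group came from a library with Xist, Rspo2-AAV 1 and control 3. That held more widely in the terminal pathway. Control 3 was the lowest control library for 4 of the 6 genes, and Rspo2-AAV 1 was the lowest of its group for 5 of 6. Rspo2-AAV 2, which held both Xist and Ddx3y, was the highest of its group for 5 of 6 in FPKM and for 3 of 6 in TPM. The libraries with Xist also had the highest sums of the neutrophil markers. The part of these libraries in the results was not tested. Without them, C8a was at 44.9 to 59.4 FPKM in the 4 remaining Rspo2-AAV libraries, against 154 to 255 FPKM in the 5 remaining controls. C9 was then at 67.2 to 80.1 FPKM in Rspo2-AAV and at 176 to 362 FPKM in control. Of the 6 terminal genes, 5 then lay wholly lower in Rspo2-AAV, C6 being the exception. The same held for 8.14% of all tested genes, against 1.62% over all 12 libraries.

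**Figure D2:**
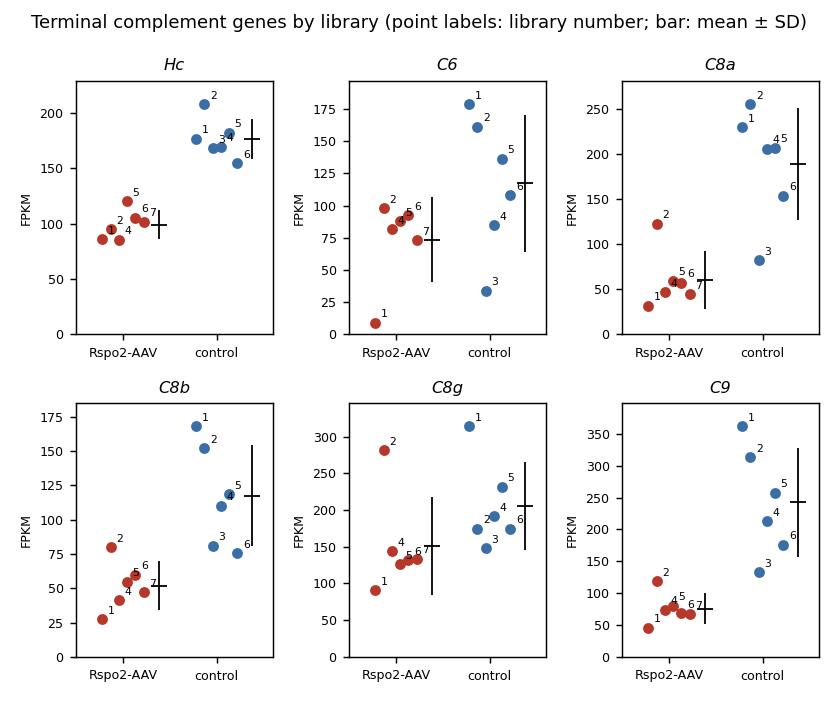
FPKM of the 6 terminal complement genes in each library, Rspo2-AAV on the left and control on the right of each panel. Points carry the library number and crosses give the mean ± SD (n = 6 each); for C9 every Rspo2-AAV point (46.1 to 119) lies below every control point (133 to 362).

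Among the initiators and their proteases, 2 of 5 genes fell, both by less than the terminal genes. C1ra, the gene of the C1r protease of the classical pathway, was at 58.1 to 86.1 FPKM (median 64.5) in Rspo2-AAV and at 81.3 to 97.0 FPKM (median 92.4) in control. The groups overlapped between Rspo2-AAV 2 and control 3 (log2 change -0.45 ± 0.11, adjusted p = 0.033). Masp2, the gene of the protease that cleaves C4 and C2 in the lectin pathway, was at 35.2 to 43.6 FPKM (median 42.2) in Rspo2-AAV and at 49.95 to 56.6 FPKM (median 51.4) in control. It did not overlap (log2 change -0.35 ± 0.09, adjusted p = 0.0373). Both calls were close to the threshold. C1ra was not called without Rspo2-AAV 4, 5, 6 or 7 or control 2, 4, 5 or 6 (adjusted p 0.0626 to 0.0823), and Masp2 not without these or Rspo2-AAV 1 (0.0572 to 0.0816). In TPM the adjusted p was 0.101 for C1ra and 0.285 for Masp2. Of Masp2's exonic bases 54.9% lie opposite Tardbp, and strand use in counting is not given, so reads of the pair cannot be told apart.

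The other 3 initiators were not called. Mbl2, a mannose-binding lectin that recognises microbial sugars, had the highest mean of the 5 and was at 179 to 288 FPKM (median 225) in Rspo2-AAV and at 214 to 402 FPKM (median 294) in control. The groups overlapped (log2 change -0.36 ± 0.18, adjusted p = 0.273). The second lectin gene Mbl1 had a change of -0.02 and the protease gene Masp1 one of -0.17.

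None of the 4 convertase genes was called in limma or in limma-voom on recovered reads, with 2 at an unadjusted p under 0.05. C4b, the gene of C4, came closest. It was at 251 to 305 FPKM (median 276) in Rspo2-AAV and at 318 to 401 FPKM (median 363) in control, without overlap (log2 change -0.38 ± 0.10, adjusted p = 0.0524). C4b has a near-identical copy, C4a, so the split of reads between them is uncertain.

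C3, the central protein on which all routes of activation converge, was the most abundant of the complement genes and ranked number 34 of all protein-coding genes by mean FPKM. It was at 1085 to 1869 FPKM (median 1547) in Rspo2-AAV and at 1074 to 2407 FPKM (median 1195) in control, and was the only complement gene with a higher mean in Rspo2-AAV (log2 change 0.19 ± 0.21, adjusted p = 0.661). The control range was set by control 3, since the other 5 controls were at 1074 to 1284 FPKM. Without the 3 libraries with Xist, C3 was at 1409 to 1744 FPKM in Rspo2-AAV, above every remaining control, as were 7.08% of all tested genes. It was not called in that fit (limma adjusted p = 0.0548). In the libraries numbered 4 to 7 it was called higher, close to the threshold (adjusted p = 0.0452), as were 6.34% of all tested genes.

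Cfb, the protease of the alternative pathway convertase, and C2, its counterpart in the classical pathway, lie 85 bases apart on chromosome 17. Cfb was at 0.737 to 2.95 FPKM in Rspo2-AAV and at 2.36 to 3.03 FPKM in control, and C2 at 6.59 to 13.7 FPKM in Rspo2-AAV and at 7.59 to 13.2 FPKM in control. Their log2 changes were -0.48 and -0.36 (adjusted p = 0.192 and 0.276). Of their exonic bases, 79.5% for Cfb and 42.8% for C2 are also exons of the read-through gene Gm20547 on the same strand, which is listed at 0 in all 12 libraries. The levels of Cfb and C2 are therefore uncertain, and low for Cfb in particular.

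Among the 4 regulators, Cfi fell. Its product, factor I, cleaves C3b and C4b together with cofactors. It was at 173 to 199.7 FPKM (median 186) in Rspo2-AAV and at 219.5 to 360.4 FPKM (median 284) in control, with no overlap. The log2 change was -0.61 ± 0.12 (adjusted p = 0.0139), and the call was kept without each of the 12 libraries in turn, while in TPM the adjusted p was 0.0617. The spread was narrow in Rspo2-AAV (SD 9.07 FPKM) and wider in control (SD 46.6 FPKM).

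The other regulators were not called. Vtn codes for vitronectin, which binds terminal complexes in plasma, and was the most abundant of the 4. It was at 988 to 2049 FPKM (median 1059) in Rspo2-AAV and at 891 to 1736 FPKM (median 1226) in control (log2 change -0.08 ± 0.21, adjusted p = 0.872). The Rspo2-AAV range was set by Rspo2-AAV 2. Serping1, the gene of C1 inhibitor, had a change of -0.37 (adjusted p = 0.114), and C4bp, a cofactor of factor I, one of -0.15.

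The 3 fibrinogen chains are encoded by neighbouring genes on chromosome 3 (Fgg, Fga and Fgb, within 83007724 to 83049863) and were not called, nor was any at an unadjusted p under 0.05. Fga, the highest, was at 985 to 1531 FPKM (median 1262) in Rspo2-AAV and at 974 to 2075 FPKM (median 1645) in control. The groups overlapped (log2 change -0.31 ± 0.18, adjusted p = 0.356). Fgb and Fgg had changes of -0.22 and -0.24. The ratio of Fga to Fgb FPKM was 1.40 ± 0.265 in Rspo2-AAV and 1.47 ± 0.0722 in control (SD, n = 6 each), and that of Fgg to Fgb 1.34 ± 0.112 in Rspo2-AAV and 1.36 ± 0.147 in control. Together the 3 genes made up 0.994% ± 0.116 of the reads of Rspo2-AAV libraries and 1.202% ± 0.261 of those of control libraries, with overlapping ranges.

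Of the 6 vitamin K-dependent proteins, which are carboxylated in the liver before secretion, F9 fell. F9 codes for factor IX, the protease that activates factor X together with factor VIII. It was at 51.3 to 61.7 FPKM (median 54.8) in Rspo2-AAV and at 62.2 to 92.5 FPKM (median 77.5) in control. The groups did not overlap but came close, at Rspo2-AAV 2 and control 4 (log2 change -0.47 ± 0.11, adjusted p = 0.0303). The call was lost without Rspo2-AAV 4, 5, 6 or 7 or control 2 or 6 (adjusted p 0.055 to 0.0781), and in TPM the adjusted p was 0.205.

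F2, the gene of prothrombin and the most abundant of the 6, was not called. It was at 367 to 429 FPKM (median 375) in Rspo2-AAV and at 336 to 451 FPKM (median 394) in control (log2 change -0.04 ± 0.11, adjusted p = 0.886). F7 and F10, the genes of factors VII and X, lie 1498 bases apart on chromosome 8 and had changes of -0.04 and -0.21. Proc, the gene of protein C, which inactivates factors V and VIII, had a change of -0.14. Its cofactor gene Pros1 had the highest positive change of the 40 (0.24, adjusted p = 0.312).

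Among the contact system, factor XI, cofactor V and factor XIII, 1 of 6 genes fell. F11, whose product activates factor IX, was at 17.1 to 34.3 FPKM (median 25.1) in Rspo2-AAV and at 38.3 to 46.2 FPKM (median 41.8) in control. The groups did not overlap, and the Rspo2-AAV values were the more spread out (log2 change -0.79 ± 0.17, adjusted p = 0.0171). The call was kept without each of the 12 libraries in turn. Klkb1, the gene of plasma prekallikrein, lies 4657 bases from F11 on chromosome 8 and was not called (log2 change -0.57, adjusted p = 0.22). It was at 12.1 to 48.8 FPKM in Rspo2-AAV, with Rspo2-AAV 2 highest, and at 26.0 to 37.2 FPKM in control. Its change was 0.18 within library numbers 1 to 3 and -0.995 within numbers 4 to 7. Of Klkb1's exonic bases 43.2% are shared with Gm45753 on the same strand.

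F13b, the gene of the carrier subunit of factor XIII, was at 42.9 to 70.5 FPKM in Rspo2-AAV and at 62.4 to 85.5 FPKM in control (log2 change -0.43, adjusted p = 0.0687). Only Rspo2-AAV 1 reached the control range. Kng1, the gene of kininogen, from which bradykinin is released, was the most abundant of the 6. It was at 496 to 827 FPKM (median 513) in Rspo2-AAV and at 447 to 626 FPKM (median 564) in control (log2 change 0.02 ± 0.15, adjusted p = 0.952), and 5 of its 6 Rspo2-AAV values lay between 496 and 514 FPKM. F12 and F5, the genes of factors XII and V, had changes of -0.08 and -0.00.

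Among the coagulation genes compared first, Serpind1 and Serpinc1 code for serpins that inhibit thrombin, and Serpind1 fell. Serpine2, another thrombin inhibitor, is described below with the further coagulation genes. Serpind1 codes for heparin cofactor II. It was at 152 to 192 FPKM (median 168) in Rspo2-AAV and at 209.7 to 269 FPKM (median 235) in control, with no overlap (log2 change -0.46 ± 0.11, adjusted p = 0.0303). The call was lost without Rspo2-AAV 4, 5 or 6 or control 4 or 5 (adjusted p 0.0639 to 0.0759), and in TPM the adjusted p was 0.186. Serpinc1, the gene of antithrombin, was at 193 to 307 FPKM (median 209) in Rspo2-AAV and at 195 to 262 FPKM (median 232) in control (log2 change -0.06 ± 0.13, adjusted p = 0.829). The ratio of Serpind1 to Serpinc1 FPKM was 0.787 ± 0.151 in Rspo2-AAV and 1.02 ± 0.0584 in control (SD, n = 6 each), and this difference was not tested. Of Serpinc1's exonic bases 34.4% are shared with Zbtb37 on the other strand.

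In fibrinolysis, 1 of 4 genes fell. Cpb2 codes for TAFI, a carboxypeptidase that slows clot lysis by trimming fibrin. It was at 116 to 151 FPKM (median 119.9) in Rspo2-AAV and at 160.2 to 244 FPKM (median 197) in control. The groups did not overlap, and the log2 change was -0.67 ± 0.12 (adjusted p = 0.00751), the smallest adjusted p among the coagulation genes. The call was kept without each of the 12 libraries in turn.

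Plg, the gene of plasminogen and the most abundant of the 4, was at 433 to 557 FPKM (median 442) in Rspo2-AAV and at 456 to 635 FPKM (median 523) in control. Rspo2-AAV 1 alone reached the control range, and the gene was not called (log2 change -0.22 ± 0.12, adjusted p = 0.325). Of Plg's exonic bases 11.3% are shared with Slc22a3 on the other strand. Serpinf2, the gene of the plasmin inhibitor alpha 2-antiplasmin, had a change of -0.40 (adjusted p = 0.116). Hrg, the gene of histidine-rich glycoprotein, which binds plasminogen, had one of -0.10.

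**Figure D3:**
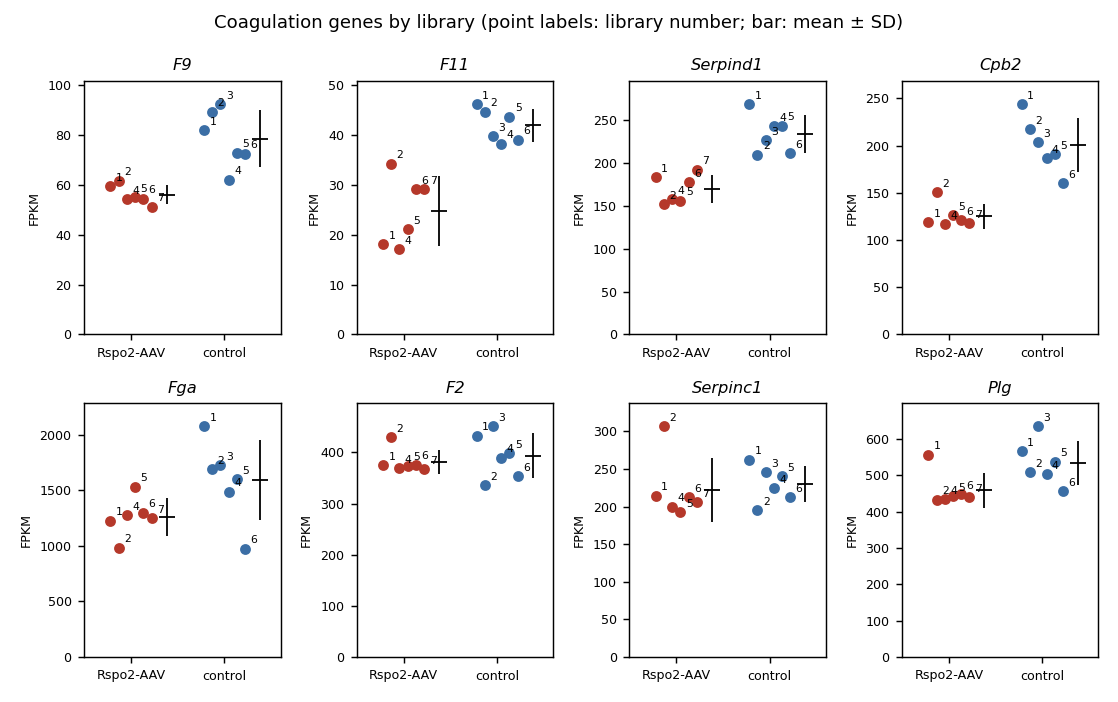
FPKM of 8 coagulation genes in each library, Rspo2-AAV on the left and control on the right of each panel, with library numbers at the points and crosses for the mean ± SD (n = 6 each). In the upper row are the 4 genes that fell (F9, F11, Serpind1 and Cpb2), whose groups do not overlap, and in the lower row Fga, F2, Serpinc1 and Plg, whose groups do.

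Across the 40 genes the libraries themselves differed. Rspo2-AAV 2 was the highest of its group for 25 of the 40 genes, and control 1 the highest of its own for 21. These ranks depended on the scaling, since the FPKM of these libraries summed to 621337 in Rspo2-AAV 2, against 355547 to 488645 in the other Rspo2-AAV libraries, and to 559490 in control 1, against 389778 to 530256 in the other controls. In TPM, a check added after the data were seen, Rspo2-AAV 2 was the highest of its group for 7 genes and the lowest for 21, and control 1 the highest for 4. The complement genes took 1.47% of the reads of Rspo2-AAV 2 and 1.94% of those of Rspo2-AAV 1, and the coagulation genes 2.14% and 2.502%. Without Rspo2-AAV 1, Rspo2-AAV 2 and control 3, the Rspo2-AAV values lay wholly below the controls in 12 of 19 complement genes and 9 of 21 coagulation genes, as in 8.14% of all tested genes. C3 alone lay wholly above, as did 7.08% of all tested genes. On these 9 libraries limma called 11 complement and 7 coagulation genes lower, against 6.75% of all tested genes. The genes called beyond those of all 12 libraries were Serping1, C4b, C8g and C2 among complement and Serpinf2, F13b and Klkb1 among coagulation.

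Controls 1 and 2 are among these 9 libraries, while Rspo2-AAV is represented by numbers 4 to 7 alone, so the change in the counts cannot be told apart from a difference between library numbers. The labels give no batch. The split into numbers 1 to 3 and 4 to 7 was drawn from values of these same data, where Scd1, a gene outside the 40, separated them. It is therefore not an independent grouping. Within numbers 4 to 7, limma called 9 complement and 6 coagulation genes lower (6.92% of all tested genes), and C3 higher (6.34%). Within numbers 1 to 3, with 2 Rspo2-AAV and 3 control libraries, it called no gene in either direction (0.0% of all tested genes). There 4 complement and 3 coagulation genes had an unadjusted p under 0.05. The share of all tested genes at that threshold was not counted in this fit, so these counts cannot be set against it. The sign of the change differed from that over all 12 libraries in 10 of the 40 genes within numbers 1 to 3 and in 4 within numbers 4 to 7, none of them called over all 12. The difference in change between the number sets was called for none of the 40 genes and for 0.245% of all tested genes (2 of the 40 had an unadjusted p under 0.05, and the smallest adjusted p was 0.309).

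**Figure D4:**
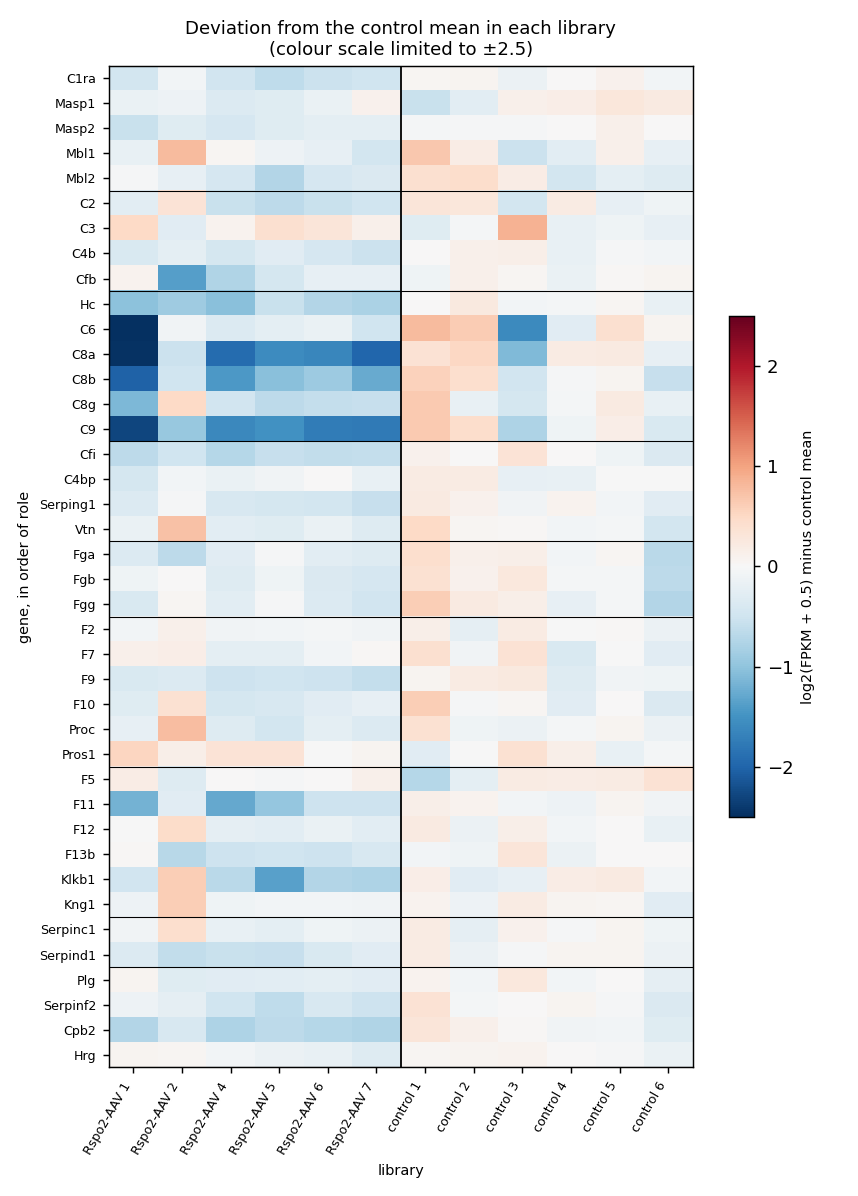
Heat map of log2(FPKM + 0.5) minus the control mean for the 40 genes (rows, in order of role) in each of the 12 libraries (columns, Rspo2-AAV left of the line and control right of it). Blue is below and red above the control mean. The terminal genes C8a and C9 are below it in all 6 Rspo2-AAV libraries, in control 3 and in control 6, and C9 also in control 4.

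Other genes of the same systems were read from the same fit. Of 31 further complement genes 26 were tested, and 6 fell and none rose, beside 2.65% and 2.55% of all tested genes. Their median log2 change was -0.44, and 24 of 26 changes were negative. Colec11, a collectin that starts the lectin pathway, averaged 11.7 ± 3.07 FPKM in Rspo2-AAV and 24.1 ± 2.81 FPKM in control (SD, n = 6 each; log2 change -1.04 ± 0.15, adjusted p = 0.00304). C1s1, whose protease partners C1r, averaged 97.1 ± 8.23 FPKM in Rspo2-AAV and 153 ± 17.5 FPKM in control (-0.65 ± 0.11, adjusted p = 0.00575). Neither gene overlapped between groups, and both were called without each of the 12 libraries in turn. In TPM the adjusted p was 0.0147 for Colec11 and 0.058 for C1s1.

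C4a and Vsig4 were also called, but not without some single libraries. C4a, the copy of C4b known in mice as sex-limited protein, averaged 3.16 ± 1.599 FPKM in Rspo2-AAV and 17.3 ± 9.64 FPKM in control (-2.17 ± 0.53, adjusted p = 0.0343). It was lowest in Rspo2-AAV 1 (0.530 FPKM) and control 3 (2.6996 FPKM), both with Xist. Its call was lost without any of Rspo2-AAV 4, 5, 6 or 7 or control 1, 2, 4, 5 or 6 (adjusted p 0.0524 to 0.0838), and in TPM its adjusted p was 0.0287. Vsig4, a receptor for C3 fragments on Kupffer cells, the resident macrophages of the liver, had a change of -0.996 ± 0.22 (adjusted p = 0.0245), and its call was lost without Rspo2-AAV 4, 5, 6 or 7 or control 2 or 4 (adjusted p 0.051 to 0.0629) and in TPM (0.0568). Without 1 of Rspo2-AAV 4, 5, 6 or 7 or control 2 or 4, the count of 6 was 3. In these fits 1.26% to 1.81% of all tested genes were called lower.

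Markers of Kupffer cells, which also make complement components such as C1q, differed between the groups. Of 7 Kupffer markers 3 fell (Marco, Clec4f and Vsig4), beside 2.65% of all tested genes. All 7 changes were negative, beside 49.6% of all tested genes. At an unadjusted p under 0.05 there were 6, beside 21.5% of all tested genes in either direction. None was at 0, and the 7 summed to 236 to 453 FPKM in Rspo2-AAV and to 369 to 786 FPKM in control. C1qa, C1qb and C1qc were not called (adjusted p = 0.124, 0.11 and 0.078). Of 6 markers of stellate cells, which make matrix, 2 fell (Dcn and Lrat). All 6 changes were negative and all 6 had an unadjusted p under 0.05, beside the same shares of all tested genes. The 6 summed to 15.3 to 29.8 FPKM in Rspo2-AAV and to 37.1 to 51.1 FPKM in control. None of 5 hepatocyte and none of 7 endothelial markers was called, with 1 of each at an unadjusted p under 0.05, beside 21.5%. Of 4 erythroid markers the globin genes Hba-a1 (log2 change 2.54, adjusted p = 0.0109) and Hbb-bs (2.43, adjusted p = 0.0155) rose, beside 2.55% of all tested genes. Alas2 had a log2 change of -0.99. The 4 erythroid markers summed to 207 to 1203 FPKM in Rspo2-AAV and to 93.0 to 328 FPKM in control. The part of these cells in the results was not tested.

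Of 38 further coagulation genes 30 were tested, of which 1 rose and 2 fell, beside 2.55% and 2.65% of all tested genes, and their median log2 change was -0.24. Kng2, a second kininogen gene beside Kng1, averaged 116 ± 9.59 FPKM in Rspo2-AAV and 85.3 ± 8.12 FPKM in control (SD, n = 6 each; 0.45 ± 0.10, adjusted p = 0.0242), with no overlap. The 2 kininogen genes are alike in sequence, and the split of reads between them is uncertain. Adamts13, which cleaves von Willebrand factor, averaged 0.949 ± 0.278 FPKM in Rspo2-AAV and 1.76 ± 0.378 FPKM in control (-0.64 ± 0.15, adjusted p = 0.0276). Serpine2, a thrombin and protease inhibitor, averaged 0.979 ± 0.623 FPKM in Rspo2-AAV and 3.91 ± 2.11 FPKM in control (-1.50 ± 0.35, adjusted p = 0.0303). All 3 calls were lost when some single libraries were left out. That of Kng2 was lost without Rspo2-AAV 5, 6 or 7 or control 2, 4, 5 or 6. That of Adamts13 was lost without Rspo2-AAV 4, 5 or 6 or control 2, 4, 5 or 6, and that of Serpine2 without Rspo2-AAV 5, 6 or 7 or control 2, 5 or 6 (adjusted p 0.0504 to 0.0766 over the 3 genes). Without control 3, limma called 6 of these genes lower, and 3.66% of all tested genes. In TPM the adjusted p was 0.108 for Kng2, 0.143 for Adamts13 and 0.0171 for Serpine2.

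Genes of the acute phase, the liver's response to inflammatory cytokines to which C3 and fibrinogen belong, were listed apart from the 40. Of 27 tested in limma, 1 rose and none fell, beside 2.55% and 2.65% of all tested genes. An unadjusted p under 0.05 was found for 8, beside 21.5% of all tested genes. Of these, Saa4, Hpx, Serpina3n, Cp, Il1rn and Il6st had negative changes, and Orm2 and Nfkbiz positive ones. The median log2 change was -0.12, and 17 of the 27 changes were negative. The gene that rose was Nfkbiz, a regulator of NF-kappaB. It was at 6.55 ± 0.734 FPKM in Rspo2-AAV and 4.10 ± 1.56 FPKM in control (SD, n = 6 each). Its log2 change was 0.66 ± 0.17 (adjusted p = 0.0419). It kept its call only without Rspo2-AAV 2 or control 3 among the 12 single-library omissions, and in TPM its adjusted p was 0.171. Of 15 hepatocyte transcription factors and nuclear receptors, HNF1 and HNF4 genes among them, none was called or was at an unadjusted p under 0.05, and their median log2 change was -0.05.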

How the data were processed

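The deposited values are FPKM per gene for 12 libraries, computed by the authors from poly-A selected RNA, per the labels' protocols. The submitters' processing notes name the aligner HISAT2 2.0.5, the counter featureCounts 1.5.0-p3, DESeq2 1.20.0 and the GRCm38 (mm10) build, with no role or order. Strand use in counting is not given in the sources used here. The labels do not say that samples are separate animals, so p-values reflect only how much these samples vary, which may be technical. Each FPKM times gene length gave whole reads within 0.01 in 100% of values, 14295644 to 22195576 reads per library. The 40 genes had 32 (Cfb) to 242651 (C3) reads in a library.

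All 13447 genes averaging 0.5 FPKM or more were fitted with limma 3.58.1 in R 4.3.3 (lmFit, eBayes with trend) after conversion to log2(FPKM + 0.5), over all 12 libraries. P-values were adjusted by Benjamini-Hochberg over all of them, and a gene was called at an adjusted p under 0.05. Every adjusted p given comes from limma. The 0.5 added to FPKM makes log2 changes of low genes smaller than they are. The fit was checked on simulated data.

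The genes and lists were chosen with earlier results of these data known. Named with values were all called genes and, for each role, the gene with the smallest p and the one with the highest mean, and the called genes of the other lists, up to 12 a list, of which some are not reported here; C6 and further values were added after being seen. Alternatives were other pseudocounts (0.1 and 1 FPKM), no filter or a mean of at least 5 FPKM, TPM with and without mitochondrially encoded genes, limma-voom on recovered reads, a replicate block, number sets, and fits without libraries that stood apart or without each library in turn. Exon overlaps come from GENCODE M21, in which 38 of the 40 genes have the deposited coordinates, and promoter windows from RefSeq on GRCm38.p6. Python 3.11.15, pandas 2.3.3 and matplotlib 3.10.9 made the summaries and figures.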

Additional observations from a re-analysis of the deposited data

Results flagged for a closer look

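Of 80 groups checked, the 2 groups of each of the 40 genes, 13 held a library whose gap to the nearest of the other 5 exceeded Dixon's critical value for 6 samples, which chance alone does for about 1 group in 20. The 80 groups are 40 genes read in the same 12 libraries and are not independent. The 13 therefore cannot be weighed against 1 in 20. Rspo2-AAV 2 was the high library in 9 of the 13. It was at 86.1 FPKM for C1ra, 2049 for Vtn, 429 for F2, 190.5 for F10, 558 for Proc, 413 for F12, 827 for Kng1, 307 for Serpinc1 and 151 for Cpb2. This library held Xist and Ddx3y together and the highest share of mitochondrial reads (10.5%), and the part of these in the values was not tested. Its FPKM also summed to more (621337) than those of the other Rspo2-AAV libraries (355547 to 488645). In TPM, a check added after the data were seen, 6 groups held such a library, and Rspo2-AAV 2 was the high library in 1 of them, for C8g.

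Rspo2-AAV 1 stood apart as the lowest library of its group for C6 (9.01 FPKM) and as the highest for Plg (557 FPKM). In the control group, control 3 was the highest for C3 (2407 FPKM) and control 5 the highest for Masp2 (56.6 FPKM). C1ra, Masp2 and Cpb2 are called genes, and in C1ra and Cpb2 the value that stood apart lies on the side of the control group.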

How the results depend on the processing

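The counts of complement and coagulation genes called lower (7 and 4 of the 40) changed by no more than 1.5 times with either pseudocount, either filter, limma-voom on recovered reads and a term for the number set. In TPM, with or without mitochondrially encoded genes, they were 4 and 2 (1.36% and 1.3% of all tested genes called lower, against 2.65%). They were 0 and 0 within numbers 1 to 3 (0.0% of all tested genes), where 4 and 3 had an unadjusted p under 0.05. They were 11 and 7 without the libraries with Xist (6.75% of all tested genes), and 2 and 0 without Rspo2-AAV 4 and 5 (0.892%). Coagulation genes at an unadjusted p under 0.05 numbered 5 in the last of these. Leaving out 1 library gave 4 to 9 complement and 2 to 5 coagulation genes, and 0 called higher in both. Of all tested genes 1.26% to 3.66% were then called lower. Within numbers 4 to 7, 1 complement gene was called higher, as were 6.34% of all tested genes. Deviations from the group means correlated at -0.25 to 0.16 between libraries of the same number. For numbers 1, 2, 5 and 6 this was below the highest correlation with another control library. For number 4 it was above that (0.082 against 0.039). These correlations cannot settle whether shared numbers pair the libraries. With the replicate block on numbers 1, 2, 4, 5 and 6, the counts were 3 and 0 (5 coagulation genes at an unadjusted p under 0.05). The share of all tested genes called lower was then 1.13%. For the counts at an unadjusted p under 0.05 in these alternatives, the share of all tested genes was not counted.

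Of the further complement genes, 6 were called lower, against 3 with no filter, in TPM with or without mitochondrial genes, with the replicate block and without Rspo2-AAV 4 and 5, 14 within numbers 4 to 7, 0 within numbers 1 to 3, 13 without the libraries with Xist, and 3 to 8 without single libraries. Of all tested genes 2.65% were called lower, against 0.736% with no filter and 3.91% with the filter at 5 FPKM. The share was 1.36% and 1.3% in TPM with and without mitochondrial genes, and 1.13% with the replicate block. It was 0.892% without Rspo2-AAV 4 and 5, 6.92% within numbers 4 to 7 and 0.0% within numbers 1 to 3. It was 3.38% with the term for the number set, 6.75% without the libraries with Xist, and 1.26% to 3.66% without single libraries. Of the further coagulation genes, 1 was called higher, against 0 in TPM with or without mitochondrial genes, with the replicate block, within numbers 1 to 3 and without Rspo2-AAV 4 and 5, 3 within numbers 4 to 7, and 0 to 1 without single libraries. Called lower were 2, against 0 with no filter, within numbers 1 to 3 and without Rspo2-AAV 4 and 5, 1 with the filter at 5 FPKM, in TPM with or without mitochondrial genes and with the replicate block, 5 within numbers 4 to 7, 7 without the libraries with Xist, 3 with the term for the number set, and 0 to 6 without single libraries. Of the acute-phase genes, 1 was called higher, against 0 with no filter, in TPM with or without mitochondrial genes, within numbers 1 to 3 and without Rspo2-AAV 4 and 5, 5 within numbers 4 to 7, 2 without the libraries with Xist and 0 to 2 without single libraries. None was called lower, against 1 with the term for the number set, within numbers 4 to 7 and without the libraries with Xist, and 0 to 1 without single libraries. Of all tested genes 2.55% were called higher, against 1.47% in TPM, 6.34% within numbers 4 to 7 and 6.0% without the libraries with Xist. The share called higher was 0.87% without Rspo2-AAV 4 and 5 and 0.0% within numbers 1 to 3.

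Signs changed in genes that were not called. Of the 40 genes, 10 had the other sign within numbers 1 to 3 and 4 within numbers 4 to 7. Within numbers 1 to 3 the log2 change was -0.067 for C3, 0.096 for Vtn, 0.14 for Serpinc1, 0.24 for Proc, 0.19 for Mbl1 and F5, 0.18 for Klkb1 and 0.15 for F12, and within numbers 4 to 7 it was 0.011 for Fga and -0.034 for Kng1. Without Rspo2-AAV 4 and 5 it was 0.022 for Vtn and 0.016 for Serpinc1, without the libraries with Xist -0.046 for Kng1, and with the replicate block 0.014 for F2. Leaving out single libraries gave -0.24 to 0.020 for Vtn (above 0 without control 1), -0.082 to 0.0028 for F2 (above 0 without control 3) and -0.096 to 0.063 for Kng1, which was below 0 without Rspo2-AAV 2, control 2 or control 6. The cause of these differences was not tested. Over all genes, 356 were called lower and 343 higher, against 183 and 197 in TPM, 152 and 145 with the replicate block and 216 and 195 of 29332 with no filter. What limits these results is the number of libraries, their differences within groups, labels that name no batch or animal, and counting whose use of strand is not given. Every one of the 40 genes had at least 32 reads in each library.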
